A study of Mus musculus with 4 samples.

Results

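Ribosomal protein pseudogenes were set beside the genes they were copied from in skeletal progenitors of newborn mouse hindlimbs. The members are the genes of the deposited count table whose symbol is a ribosomal protein symbol followed by -ps, that carry a pseudogene type and that hold at least 10 counts over the 4 libraries together. Of 319 symbols of this form 311 were typed as pseudogenes, and of these 94 held 0 counts and 70 held 1 to 9. The remaining 147 members, of 55487 genes in all, were each paired with the parent gene whose symbol stands before -ps. The sum over all libraries chose the members, without regard to label. Just inside the limit were Rpl23a-ps2, Rpl30-ps10, Rpl31-ps15, Rpl7a-ps10 and Rpl7a-ps5 with 10 counts each, and just outside it Rpl12-ps1, Rpl19-ps5, Rpl23a-ps1 and Rpl30-ps3 with 8 each. Another 8 symbols of the form were left out by their type, 7 of them listed as protein coding and 1 as a long intergenic RNA.

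A ribosome is built from ribosomal RNA and a set of proteins, most of which are made from a single functional gene each. Their mRNAs are short and abundant in dividing cells. Such mRNAs have been copied back into the genome many times by the reverse transcriptase of retrotransposons, which leaves processed pseudogenes: copies without introns or a promoter of their own, scattered over the chromosomes. A sequencing read from the spliced mRNA of the parent that crosses no splice junction can match such a copy as well as the parent, so a count on a pseudogene can come from either.

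The libraries were made from polyadenylated RNA of hindlimb cells at postnatal day 1, sorted as live GFP+ cells of the Prx1 lineage that lack CD45, Tie2 and Ter119. Prx1-cre, active in limb mesenchyme, drives both the GFP reporter of Rosa26 mTmG and, in the mutant, the deletion of floxed Ecsit, which encodes a complex I assembly factor. There are 2 libraries labelled WT (2 and 3) and 2 labelled cKO (2 and 3), with 18266573, 18489694, 20152872 and 19271414 counts, and the labels do not say whether a library is 1 animal or a pool. The p-values therefore measure the spread between these libraries, which may be technical. The sample titles give WT and cKO, while the genotype field gives EcsitPrx1 for the libraries titled WT and Ecsitfl/fl for those titled cKO. The level of Ecsit, in CPM (counts scaled to library size, here with TMM factors), was 12.6 in WT 2, 18.9 in WT 3, 33.6 in cKO 2 and 30.2 in cKO 3. It was thus higher in the libraries labelled cKO (log2 fold change 1.02, SE 0.25, edgeR adjusted p = 0.0245), against their label, and every direction below reverses if the groups were exchanged.

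Markers of skeletal progenitors were present in every library, at summed levels of 29073 to 32756 CPM, most of it Col1a1 (28274 to 31730 CPM), and 0 of 6 were called in either direction. Pdgfra was at 481, 371, 291 and 296 CPM and Prrx1 at 265, 264, 213 and 194 CPM (libraries in the order above), so the labels did not overlap in either. Erythroid markers summed to 682 CPM in WT 2, 604 in WT 3, 2017 in cKO 2 and 1914 in cKO 3, and 5 of 5 tested were higher in the libraries labelled cKO. Muscle markers summed to 12.2 and 12.8 CPM against 77.1 and 81.8 CPM (3 of 5 tested higher), haematopoietic markers to 2.29 to 5.05 CPM (1 of 3 tested higher) and endothelial markers to 44.6 to 55.2 CPM (0 of 4). No marker was at 0 in all libraries. The part of these cells in the results was not tested, and in bulk libraries fewer cells of a type and less RNA per cell cannot be told apart.

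The 147 members are copies of 53 parents, 33 of the large and 20 of the small ribosomal subunit, with 84 and 63 members. Of these parents 16 have 1 member and 21 have 3 or more. Rpl31 leads with 11 members, followed by Rpsa and Rps2 with 8 each and Rpl17, Rps12 and Rpl19 with 6 each. The table types 140 members as processed and 7 as transcribed processed pseudogenes. In GENCODE vM21 on GRCm38, 145 of them have 1 exon, and the median exon length is 523 bases (151 to 2871). They lie on 20 chromosomes, 94 between genes, 48 in an intron of another gene (18 on the strand of that gene) and 5 over an exon of another gene.

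Most members are near copies. Aligned to a coding transcript of the parent, they had a median identity of 98.5%, 88 were at 98% or more, and 10 differed from it at 0 positions. To see how much of a member could be told from other genes, each 50-base window of it was looked up in all annotated transcripts of other genes, on both strands. A median of 37.6% of a member's windows occurred in no other gene. In 14 members no window was their own, and these 14 held 6695 of the 27775 member counts (24.1%). In 15 members at least 80% of the windows were their own, and these held 803 counts (2.89%). So most counts lay on members that resemble another gene over much of their length.

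Rps16-ps2, the member with the most counts (1669), is the plainest case of such likeness. It lies on the minus strand at chr5:129128077-129128517 (GRCm38), on the opposite strand of an intron of the adhesion receptor gene Adgrd1, and all 441 of its bases match the Rps16 transcript. Rps16 encodes a protein of the small subunit. The first 90 coding bases of the parent and the matching stretch of the pseudogene (chr5:129128428-129128517) read the same, 5′ to 3′, with capitals reserved for differing bases:
Rps16: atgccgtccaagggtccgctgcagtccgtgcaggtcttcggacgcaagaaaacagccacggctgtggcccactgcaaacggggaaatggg
Rps16-ps2: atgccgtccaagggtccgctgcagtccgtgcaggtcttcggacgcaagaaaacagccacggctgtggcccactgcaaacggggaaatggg

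Rpl39-ps is the member with the most counts per kilobase of exon (4702). Rpl39 encodes one of the smallest ribosomal proteins, which lines the tunnel through which the new peptide leaves. The pseudogene, on the plus strand at chr15:102635038-102635188, is 151 bases long and differs from the parent at 1 position, marked by a capital in the first 150 coding bases (chr15:102635039-102635188), and 49.0% of its windows were its own:
Rpl39: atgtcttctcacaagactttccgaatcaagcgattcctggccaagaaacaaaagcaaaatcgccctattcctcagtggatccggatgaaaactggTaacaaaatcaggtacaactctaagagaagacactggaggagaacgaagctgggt
Rpl39-ps: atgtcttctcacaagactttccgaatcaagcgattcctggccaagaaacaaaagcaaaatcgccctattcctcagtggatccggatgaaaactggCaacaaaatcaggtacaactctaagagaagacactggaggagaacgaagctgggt

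Copies of 1 parent can differ widely in likeness. Rpl31 encodes a large subunit protein near the exit of the peptide tunnel. Its copy Rpl31-ps8 (minus strand, chr15:90764279-90764656) has 0 differences and Rpl31-ps6 (plus strand, chr5:123466509-123466886) has 33, with 99.7% of its windows its own. They are shown over coding bases 30 to 149 of the parent (chr15:90764508-90764627 and chr5:123466538-123466654). Capitals mark bases that differ between Rpl31 and Rpl31-ps6, and in the parent also bases that Rpl31-ps6 lacks:
Rpl31: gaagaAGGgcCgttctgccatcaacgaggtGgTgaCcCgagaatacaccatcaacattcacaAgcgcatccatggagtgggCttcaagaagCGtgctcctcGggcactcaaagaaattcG
Rpl31-ps8: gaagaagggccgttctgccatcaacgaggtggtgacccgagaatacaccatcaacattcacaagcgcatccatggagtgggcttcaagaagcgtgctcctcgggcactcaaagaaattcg
Rpl31-ps6: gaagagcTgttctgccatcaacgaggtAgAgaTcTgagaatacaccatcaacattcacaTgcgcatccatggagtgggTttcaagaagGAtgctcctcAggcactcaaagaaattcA

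The members as a group were higher in the libraries labelled cKO, and so were their parents. Together the members held 2766 counts in WT 2, 5177 in WT 3, 9683 in cKO 2 and 10149 in cKO 3, or 151, 280, 480 and 527 CPM before scaling by TMM. WT 3 was thus well above WT 2, and both stood below the libraries labelled cKO. The parents took 2.09%, 4.10%, 6.51% and 6.57% of all counts in the same order, with the same gap between WT 2 and WT 3. Over all 147 members the CPM of the labels did not overlap in 125, of which 123 were higher in the libraries labelled cKO and 2 were lower, beside 36.3% of all genes tested that were higher in this way and 36.2% that were lower.

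Of the members 99 passed the filter on low counts and 57 of these were higher at a Benjamini-Hochberg adjusted p under 0.05, beside 14.1% of all 16157 genes tested (edgeR quasi-likelihood test, 2 against 2). With edgeR 0 members were lower at an adjusted p, beside 14.3% of all genes, and 0 at an unadjusted p under 0.05, where 79 were higher, beside 22.3% and 21.7% of all genes. DESeq2 gave 43 higher and 0 lower of 112 members tested, beside 13.5% and 13% of all genes. The fitted log2 fold changes ran from -0.97 to 2.61 with a median of 1.48, against a median of -0.02 over all genes, and were above 0 in 96 of 99. A member can pass the filter through the label where it is high, and 65 members held at least 10 counts in every library, of which 50 were higher, beside 14.6% of all genes in that fit. The 48 members that were not tested held at most 49 counts each, and the CPM of 30 of them did not overlap upwards and of 1 downwards. Leaving out a library changed these counts: 29 of 109 members tested were higher without cKO 2 and 29 of 103 without cKO 3, beside 3.03% and 2.91% of all genes, and 0 were lower in both, beside 2.98% and 4.35%. With a correction for exon length 27 were higher and 2 lower, Rpl26-ps6 among them, beside 16.5% and 12.7% of all genes, and without the filter on low counts 19 were higher, beside 2.77%, and 0 lower, beside 2.12%.

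Of the 53 parents 49 were higher and 0 lower (median log2 fold change 1.33), and an unadjusted p under 0.05 gave 51 higher and 0 lower, as did DESeq2. The parents that did not pass were Rps10 (0.33, adjusted p = 0.389), Rpl7 (0.73, adjusted p = 0.133), Rpl3 (0.90, adjusted p = 0.0617) and Rpl21 (1.14, adjusted p = 0.0594). The last 3 are named after their values were seen. Without cKO 2 the higher parents numbered 20, without cKO 3 22, and without the filter on low counts 22. Of the 27 cytosolic ribosomal protein genes that have no member, 21 were higher and 0 lower (median 1.30). Of 7 paralogs and retrogenes tested 4 were higher and 0 lower. Pseudogenes of other families with -ps in the symbol gave 18 higher and 6 lower of 93 tested (median 0.80), and all other pseudogenes by type 194 higher and 25 lower of 781 (median 0.89). Whether the members differ from these lists was not tested.

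Of the 57 higher members 54 had a parent that was also higher. The other 3 were copies of parents that did not pass. Of the 42 tested members that were not called, 36 had a higher parent. The member lay above its parent in log2 fold change in 64 of 99 pairs and below it in 35, with a median difference of 0.13. Across the 99 pairs, which share parents and are not independent, Spearman's rho between the fold changes of member and parent was 0.50 and Pearson's r 0.33. The level of a member said little about the level of its parent. Across 147 pairs rho between their mean CPM was 0.03.

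**Figure D1:**
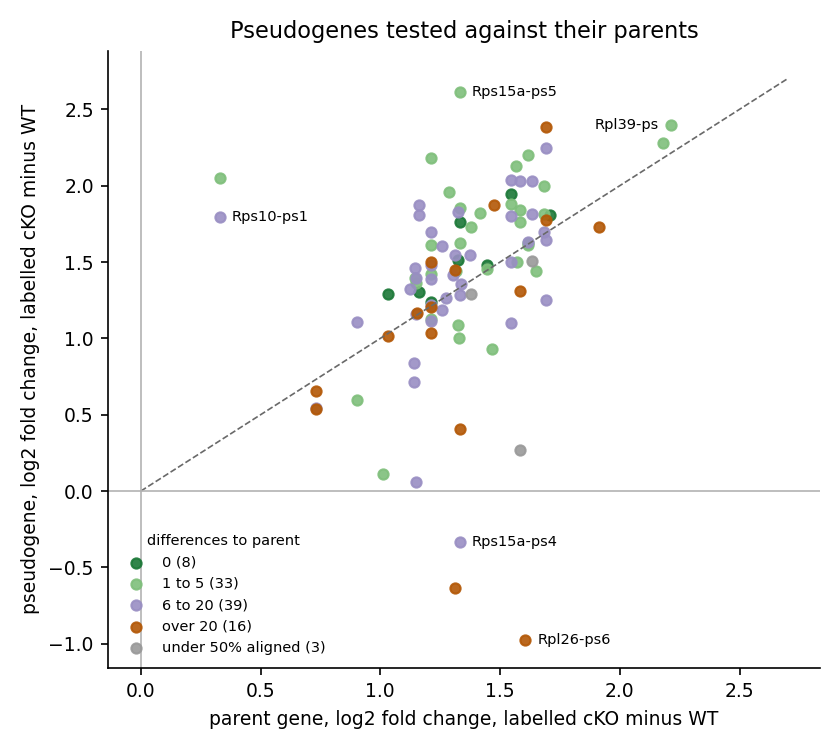
Fitted log2 fold change (labelled cKO minus WT) of the 99 tested pseudogenes on the vertical axis against that of the parent on the horizontal axis, 1 point per pseudogene, coloured by the number of differences to the parent, with the line of equal change dashed. Most points lie near the line and the Rps10 copies lie far above it. Below 0 lie 3 points, among them Rpl26-ps6 (-0.97) and Rps15a-ps4 (-0.33).

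The libraries that share a label also differed. WT 3 lay above WT 2 by a median log2 difference of 0.60 over the tested members, in 89 of 99, and by 0.94 over the parents, in 53 of 53. Over all genes tested this median was 0.04 (8507 of 16157 above 0), and over all other pseudogenes by type 0.26 (541 of 781). Between cKO 3 and cKO 2 the medians were 0.06 over the members and -0.02 over the parents, beside 0.003 over all genes. The members thus followed the parents in the comparison of the 2 libraries labelled WT as well.

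The 12 members with the highest CPM held 42.4% of all member counts. Rps16-ps2 was at 6.58 CPM in WT 2, 13.5 in WT 3, 32.6 in cKO 2 and 37.9 in cKO 3. It rose from 10.1 ± 4.92 to 35.3 ± 3.76 CPM (SD, n = 2), a log2 fold change of 1.81 (SE 0.33, edgeR adjusted p = 0.0153), beside 1.71 for Rps16. The labels did not overlap, and WT 3 was above WT 2 by more than the libraries labelled cKO differed.

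Rpl39-ps had the second highest fold change of the tested members. Its level was 2.14 CPM in WT 2, 4.04 in WT 3, 14.8 in cKO 2 and 17.9 in cKO 3 (43, 82, 266 and 319 counts), a log2 fold change of 2.40 (SE 0.34, adjusted p = 0.0127). The parent Rpl39 had the highest fold change of all 53 parents, 2.21, at 129, 260, 869 and 937 CPM. Rps7-ps3, a copy of a small subunit gene on chromosome X with 4 differences, was at 4.14, 7.88, 29.4 and 28.9 CPM (2.28, adjusted p = 0.0127), beside 2.18 for Rps7. In both pairs a parent with a large change stood beside a copy with a large change.

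Rpsa-ps10 is a copy of Rpsa, which encodes a small subunit protein also known as the laminin receptor. Its CPM was 6.33 in WT 2, 13.2 in WT 3, 27.6 in cKO 2 and 26.9 in cKO 3 (1.48, adjusted p = 0.0203). Rpl10a-ps1, identical to its large subunit parent over its whole length, was at 7.08, 13.5, 23.3 and 27.2 CPM (1.29, adjusted p = 0.0242, and 0.0785 without cKO 3). Rps26-ps1 was at 4.99, 11.5, 23.2 and 21.7 CPM (1.44, adjusted p = 0.0265). Without the filter on low counts, where more genes were tested, the adjusted p of Rpsa-ps10, Rpl10a-ps1 and Rps26-ps1 was 0.0516, 0.0575 and 0.0630. In these 3 members WT 3 lay nearer to WT 2 than to either library labelled cKO in CPM, but not on the log2 scale.

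The other members of the 12 were Rpl14-ps1 (1.42), Rpl28-ps1 (1.51), Rps6-ps4 (1.30), Rps19-ps6 (1.36), Rpl28-ps3 (1.08) and Rps10-ps1 (1.79). Their adjusted p ran from 0.0142 to 0.0437. Rps6 encodes the small subunit protein that S6 kinases phosphorylate, and RPS19 is the gene most often mutated in Diamond-Blackfan anaemia in humans. Rps6-ps4 did not pass without cKO 3 (adjusted p = 0.0767), nor did Rpl28-ps3 without cKO 2 (0.102) or cKO 3 (0.145). With the correction for exon length Rpl28-ps3 (0.36, adjusted p = 0.268) and Rps19-ps6 (0.67, adjusted p = 0.0757) did not pass. Per kilobase of exon, 9 of these 12 were also among the first 12 members.

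**Figure D2:**
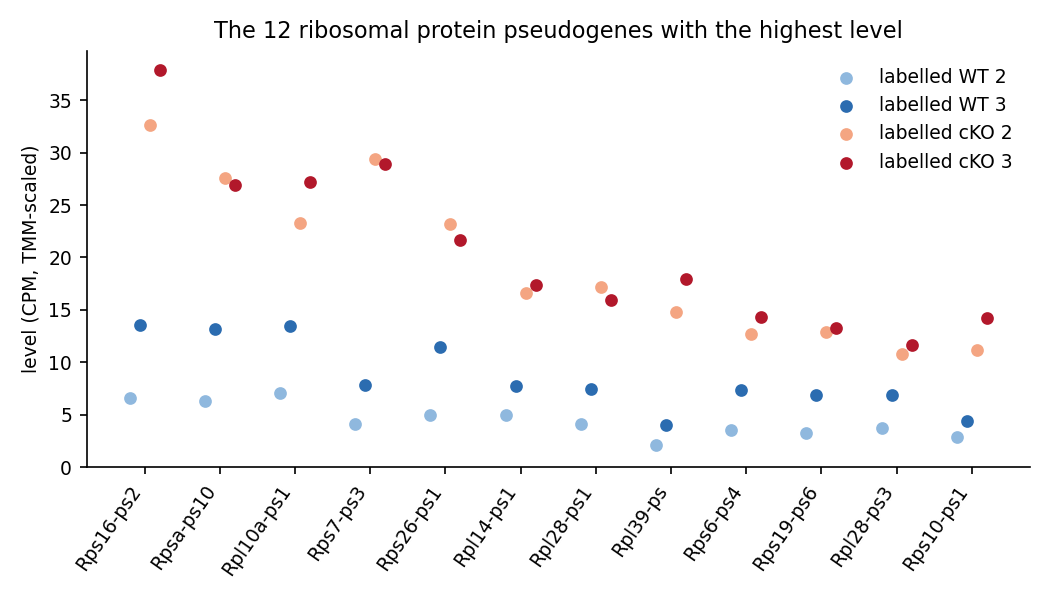
TMM-scaled CPM of the 12 members with the highest mean CPM, 1 point per library, 2 libraries labelled WT (blue) and 2 labelled cKO (red). In each member both libraries labelled cKO lie above both labelled WT, and WT 2 is the lowest, as in Rps16-ps2 with 6.58, 13.5, 32.6 and 37.9 CPM.

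Members with smaller counts gave the extreme fold changes. Rps15a-ps5, a copy of the small subunit gene Rps15a on the opposite strand of an intron of Lrrc8d, had the highest, 2.61 (SE 0.60, adjusted p = 0.0211, and 0.0687 without cKO 2), from 3, 11, 43 and 34 counts. Rps2-ps6 had 5, 3, 20 and 18 counts (2.38, adjusted p = 0.0243). Both had fewer than 10 counts in WT 2, and Rps2-ps6 passed the filter on low counts through the libraries labelled cKO. Rps2-ps6 did not pass with DESeq2 (adjusted p = 0.0809), with the length correction (0.0505), without cKO 2 (0.190) or without cKO 3 (0.151). Rps2-ps10, with 11, 24, 78 and 70 counts, had a value of 2.25 (adjusted p = 0.0163). Further higher members with small adjusted p were Rpl34-ps1 (2.13), Rps10-ps2 (2.05), Rpl19-ps7 (2.03), Rpl31-ps11 (1.88), Rpl9-ps7 (1.82), Rps15-ps2 (1.81), Rpl19-ps11 (1.76) and Rpl18-ps2 (1.73), at 0.0136 to 0.0170. Of these Rpl9-ps7 did not pass without cKO 2 (adjusted p = 0.0806). All are copies of parents that rose, other than Rps10-ps2.

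Inside a library the ratio of member to parent counts needs no scaling between libraries. It is a ratio of counts, and takes no account of the longer exons of the parents. Pooled over all 147 members it was 0.725 counts per 100 parent counts in WT 2 (95% exact binomial interval 0.698 to 0.753) and 0.683 in WT 3 (0.664 to 0.702). It was 0.738 in cKO 2 (0.724 to 0.753) and 0.802 in cKO 3 (0.786 to 0.818). The intervals cover counting error alone. The ratio thus moved far less than the parents, which went from 2.09% and 4.10% of counts in the libraries labelled WT to 6.51% and 6.57%. It still differed between libraries beyond counting error, with WT 3 the lowest and cKO 3 the highest. The difference between labels was 0.07 counts per 100, from 0.704 ± 0.030 to 0.770 ± 0.045 (SD, n = 2), with an exact permutation p of 0.33 (two-sided), the smallest that 2 against 2 libraries allow.

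Pair by pair, the log2 ratio of member to parent (pseudocount 0.5) did not overlap between labels in 63 pairs, of which 30 rank higher under the label cKO and 33 lower, and overlapped in 84. In shares these are 20.4% and 22.4%, beside 19.0% higher and 17.6% lower of 142 other pseudogenes set against their parents in the same way. The median difference was -0.03, and 103 of 147 pairs lay within 0.5 of 0 on the log2 scale. Between libraries of 1 label the median was -0.18 (WT 3 minus WT 2) and 0.06 (cKO 3 minus cKO 2). Over the 97 pairs with at least 40 member counts the median between labels was 0.11 (26 higher, 17 lower), against -0.10 and 0.07 between libraries of 1 label. The sign of the median thus depended on the members with few counts, and without WT 3 it was -0.22 over all pairs.

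The ratio ran with likeness to the parent. The 10 members with 0 differences had 0.992, 0.996, 1.08 and 1.19 counts per 100 parent counts in WT 2, WT 3, cKO 2 and cKO 3. The 47 with 1 to 5 differences had 0.558, 0.529, 0.632 and 0.669, and the 49 with 6 to 20 had 0.387, 0.350, 0.377 and 0.414. The 37 with more than 20 had 0.149, 0.137, 0.102 and 0.114. These 4 groups kept this order in every library. Per kilobase of exon the median counts of a member were 1178, 232, 153 and 53.9 in the same order of groups. Across the 143 members aligned over at least 50% of their length, rho between identity and ratio was 0.37, a description across members that share parents.

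The most diverged group went the other way from the closest ones. With more than 20 differences the ratio was lower in both libraries labelled cKO (95% exact binomial intervals 0.0942 to 0.11 and 0.106 to 0.123) than in both labelled WT (0.133 to 0.167 and 0.125 to 0.149). Of the 142 other pseudogenes set against their parents, 19.0% had a ratio that was higher without overlap and 17.6% lower. In the diverged group 2 pairs were higher and 13 lower (5.4% and 35.1%), against 4 and 1 of the 10 pairs with 0 differences. Of its 16 tested members 3 were higher (median 1.19), while of 33 with 1 to 5 differences 25 were higher (median 1.63), or 18.8% and 75.8% beside the 14.1% of all genes. The share in the diverged group is thus close to that of all genes. The group includes Rpl36a-ps3, which resembles another gene more than its namesake. The difference between these groups was not tested.

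**Figure D3:**
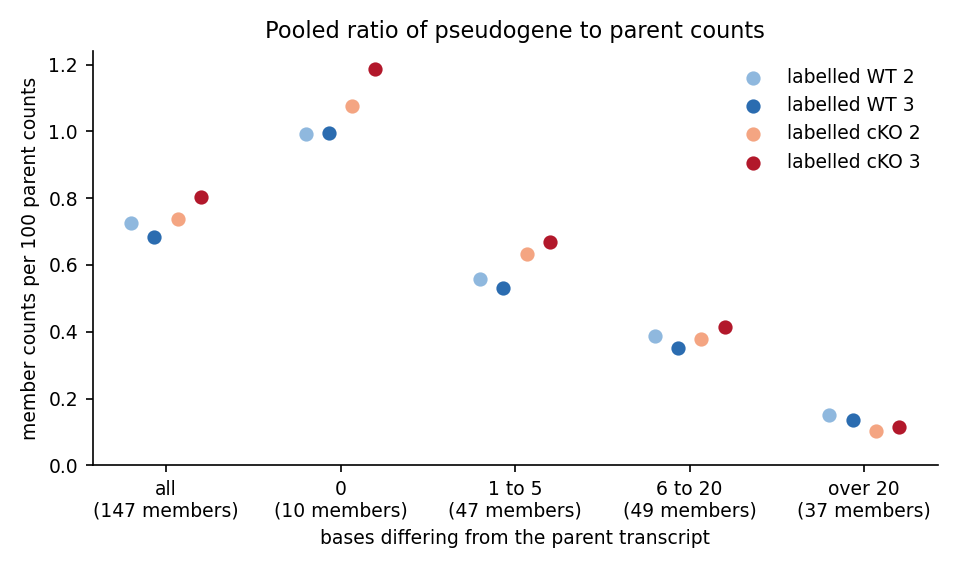
Member counts per 100 parent counts, pooled over all 147 members and over members grouped by the number of bases that differ from the parent transcript, 1 point per library (blue labelled WT, red labelled cKO). The ratio falls from 0.992 to 1.19 with 0 differences to 0.102 to 0.149 with more than 20, where both libraries labelled cKO lie below those labelled WT.

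Some diverged members did not follow the parent. Rpl26-ps6 has 43 differences to Rpl26, which encodes a large subunit protein, and 96.4% of its windows were its own. It had 26 and 23 counts in WT 2 and WT 3 and 7 and 15 in cKO 2 and cKO 3, so the labels did not overlap. Its log2 fold change was -0.97 (SE 0.53, adjusted p = 0.189), while Rpl26 rose by 1.61 (adjusted p = 0.0199), from 229 and 486 CPM to 1090 and 1085 CPM. Its ratio to the parent was 0.567, 0.233, 0.0358 and 0.0776 counts per 100. With the correction for exon length it was lower (-1.76, adjusted p = 0.0386). It lies on the plus strand at chr9:43217122-43217555, between genes, and is shown over coding bases 226 to 345 of the parent (chr9:43217347-43217465), where differences, in capitals, are most dense:
Rpl26: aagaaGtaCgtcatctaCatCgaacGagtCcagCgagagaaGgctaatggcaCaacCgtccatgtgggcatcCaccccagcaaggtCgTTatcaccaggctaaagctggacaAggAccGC
Rpl26-ps6: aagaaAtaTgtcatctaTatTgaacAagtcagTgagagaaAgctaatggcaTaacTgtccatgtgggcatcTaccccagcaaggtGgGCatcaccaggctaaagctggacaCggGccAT

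Rps15a-ps4, with 12 differences to the small subunit gene Rps15a, had 9, 38, 15 and 18 counts in WT 2, WT 3, cKO 2 and cKO 3 (-0.33, adjusted p = 0.721, and 1.03 without WT 3, adjusted p = 0.229). The labels overlapped, with WT 3 the highest, and the sign of the fold change rested on WT 3.

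Among the 11 copies of Rpl31 the closest and the most distant gave opposite orders of the labels. The identical Rpl31-ps8 had 22, 60, 128 and 152 counts in WT 2, WT 3, cKO 2 and cKO 3 (1.95, adjusted p = 0.0207). Rpl31-ps6, shown above with 33 differences, had 6, 14, 3 and 2 and was not tested. Its ratio to Rpl31 was 0.105 and 0.106 in the libraries labelled WT and 0.0121 and 0.00827 in those labelled cKO, the lowest log2 difference of the 147 pairs (-3.21). Of the other copies Rpl31-ps11, Rpl31-ps16 and Rpl31-ps10 were higher (1.88, 1.80 and 2.04), and Rpl31-ps13 (1.50, adjusted p = 0.11) and Rpl31-ps14 (1.10, adjusted p = 0.112) did not pass. The last 4, with 10 to 17 counts each, were not tested. Rpl31 itself had a value of 1.55.

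The 8 copies of Rpsa and the 8 of Rps2 spread less. Of the Rpsa copies Rpsa-ps10, Rpsa-ps2, Rpsa-ps9 and Rpsa-ps7 were higher (1.22 to 1.70), and Rpsa-ps12, Rpsa-ps4 and Rpsa-ps1 (1.04 to 1.50) did not pass. Rpsa-ps11, with 38 differences, had 4, 9, 9 and 8 counts and was not tested. Of the Rps2 copies Rps2-ps10, Rps2-ps13 and Rps2-ps6 were higher, Rps2-ps8 (1.25) and Rps2-ps5 (1.78) did not pass, and 3 were not tested. Within both families the copy with the fewest differences held the most counts.

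Divergence did not always go with a fall. Of the 15 members with at least 80% of their windows their own, 6 were tested and 3 were higher, beside 14.1% of all genes. Over the 15 the median log2 difference of the ratio to the parent (labelled cKO minus WT) was -0.40. Rpl13a-ps1, with 29 differences to its large subunit parent, had 12, 40, 72 and 81 counts (1.73, adjusted p = 0.0392, and 0.0700 without cKO 3), and Rpl13a rose by 1.91. Rps15-ps3, which aligned to Rps15 over 37.8% of its length, had 10, 20, 37 and 39 counts (1.51, adjusted p = 0.0479). Rpl13a-ps1 did not pass with the length correction (adjusted p = 0.0616). Rps15-ps3 was picked out after its values were seen.

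**Figure D4:**
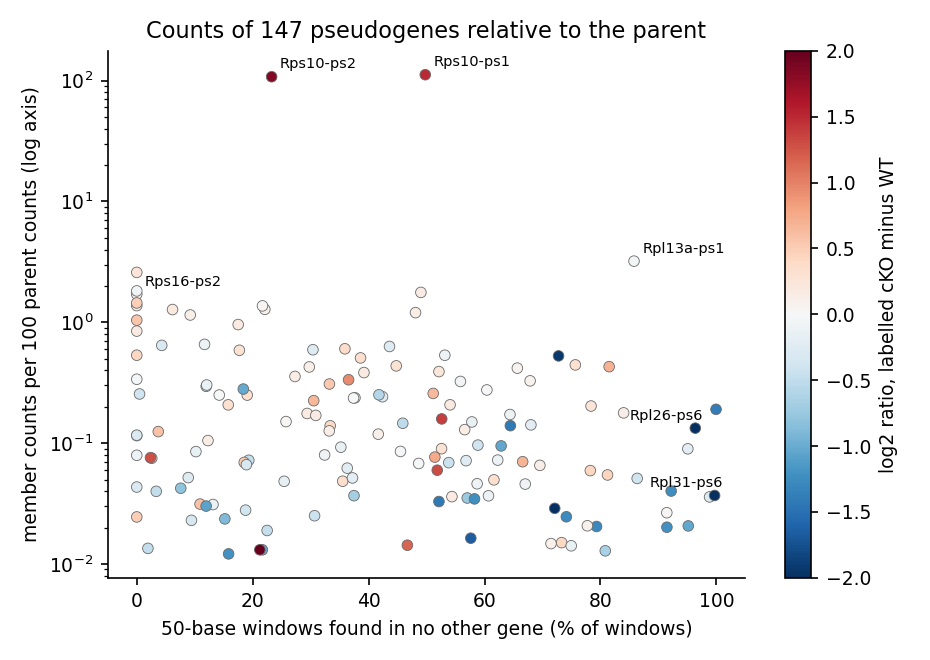
Counts of each of the 147 pseudogenes per 100 counts of the parent (log axis) against the share of its 50-base windows found in no other annotated gene, coloured by the log2 difference of the ratio (labelled cKO minus WT). Both Rps10 copies stand at more than 100 counts per 100, and Rpl26-ps6 and Rpl31-ps6 at the right have the lowest differences, -2.74 and -3.21.

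The 2 copies of Rps10 were the reverse case, with a parent that did not pass the test. Rps10 encodes a small subunit protein. The table gives it 116 and 139 counts in WT 2 and WT 3 and 122 and 162 in cKO 2 and cKO 3, fewer than its 2 copies together in WT 3, cKO 2 and cKO 3. Rps10-ps1 had 58, 90, 201 and 254 counts (1.79, adjusted p = 0.0142) and Rps10-ps2 38, 86, 225 and 231 (2.05, adjusted p = 0.0153). The ratios to Rps10 were 50, 64.7, 165 and 157 counts per 100 for Rps10-ps1, and 32.8, 61.9, 184 and 143 for Rps10-ps2. These are the highest ratios of all members, and the labels did not overlap in either. Of the exon bases of Rps10, 28.7% overlap exons of RPS10-NUDT3, a read-through gene, and the antisense gene Gm15420, so fragments there can be assigned to more than 1 gene. Of the 50-base windows of the aligned Rps10 transcript, 7.57% occurred in no other gene. Most of it thus cannot be told from other genes at that length, and its counts may not give the level of Rps10. Rpl5, at 6.16%, held 6434 to 20997 counts. The part of the exon overlap and of the shared windows in the counts was not tested. The copies are near identical to the parent, as coding bases 354 to 473 show. Capitals mark bases that differ from Rps10, and in Rps10 those that differ in either copy (chr3:95622631-95622750, plus strand, and chr16:20822168-20822287, minus strand):
Rps10: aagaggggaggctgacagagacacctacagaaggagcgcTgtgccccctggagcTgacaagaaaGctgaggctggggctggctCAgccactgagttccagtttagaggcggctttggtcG
Rps10-ps1: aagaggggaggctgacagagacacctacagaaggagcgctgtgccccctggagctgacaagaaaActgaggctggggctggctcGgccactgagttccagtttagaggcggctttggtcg
Rps10-ps2: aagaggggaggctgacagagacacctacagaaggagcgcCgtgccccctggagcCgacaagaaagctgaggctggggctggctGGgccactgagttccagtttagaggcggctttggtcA

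At the other end of the ratios were Rpl13-ps6 (1, 3, 0 and 8 counts), Rpsa-ps11 and Rpl7a-ps5 (4, 1, 3 and 2 counts), with Rpl7a-ps10 (0, 0, 2 and 8 counts) tied with the last, at 0.0121 to 0.0131 counts per 100 over all libraries. The median over all members was 0.116. At least 1 count per 100 was reached by 15 members, and 71 stayed under 0.1. Rpl13-ps6 has 3 differences to Rpl13 and 15.8% of windows of its own, so a near copy can also be almost without counts.

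For some members another coding gene was more like them than the named parent. For 140 members the named parent shared the most 30-base windows among coding transcripts of other genes, and for 7 it did not. This check was added after the values were seen.

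Rps7-ps2 matched Odc1, the gene of ornithine decarboxylase, which starts polyamine synthesis, at 89.7% identity, and shared 0 windows with Rps7. It had 9, 8, 4 and 8 counts. Odc1 was at 212, 204, 206 and 220 CPM (log2 fold change 0.03, adjusted p = 0.906), whereas Rps7 rose by 2.18. Its ratio to Odc1 was 0.212, 0.193, 0.108 and 0.204 counts per 100, while its ratio to Rps7 was 0.130 and 0.0608 in WT 2 and WT 3 and 0.00983 and 0.0201 in cKO 2 and cKO 3. The labels thus overlapped in the ratio to the gene it resembles and did not in the ratio to its namesake.

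Rpl36a-ps3 matched Rpl36al, a paralog of Rpl36a, at 99.7% identity and shared 0 windows with Rpl36a. It had 17, 23, 22 and 25 counts (0.41, adjusted p = 0.506), Rpl36al had 37, 72, 36 and 33 (-0.48, adjusted p = 0.398), and Rpl36a rose by 1.33. Rpl26-ps6 shared no 30-base window with any coding transcript. Also among the 7 were Rps18-ps3, Rpl9-ps8 and Rps4l-ps. All 3 had a higher identity to the named parent (99.3%, 87.5% and 93.3%) than to the gene with the most shared windows (99.1%, 86.7% and 77.2%). Rps4l has no coding transcript that could share any. All 3 of Rps7-ps2, Rpl36a-ps3 and Rpl26-ps6 were among the 33 pairs whose ratio to the named parent was lower in the libraries labelled cKO.

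By position in the genome, among members between genes 33 of 62 tested were higher (median 1.46), in introns of a gene on the opposite strand 14 of 21 (median 1.50) and in introns on the same strand 8 of 12 (median 1.52). Of 4 tested members over exons of other genes 2 were higher. Over all tested members 57.6% were higher, beside 14.1% of all genes. These differences were not tested. For 24 members with a tested host gene, rho between the fold changes of host and member was 0.35, a description only.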

How the data were processed

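The deposited table holds raw counts per gene for 4 libraries, with no normalization. Per the paper's methods, the authors aligned paired reads to mm10 with STAR and counted exon fragments above a mapping quality limit with featureCounts. The processing notes of the submitters instead list HTSeq 0.11.3 and the human build GRCh38.p12, beside STAR 2.6.1b and DESeq2 1.28.1, and the table does not state which pipeline made it or how a fragment that matches a pseudogene and its parent was assigned. The kit as described does not mark strand.

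Groups follow the sample titles. cKO was compared with WT by edgeR 4.0.16 in R 4.3.3 (filterByExpr with a minimum count of 10, TMM, quasi-likelihood test, condition as the only term), over all 16157 genes passing the filter, with a call at a Benjamini-Hochberg adjusted p under 0.05. DESeq2 1.42.0, with and without ashr 2.2.63, was an alternative, as were other scalings and filters, a replicate block and leaving out each library. An exon length correction (lowess, span 0.3, pseudocount 0.5), a crossed replicate block and leaving out the Rps10 copies were further alternatives.

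Positions and transcripts are those of GENCODE vM21 on GRCm38, which holds 98.1% of the table's gene identifiers in the same version and every member. Members were aligned to the best coding transcript of the parent with Biopython 1.88 (local alignment, match 2, mismatch -3, gap opening -5, gap extension -2, both strands). Windows of 50 bases were compared with transcripts of all other genes, not with unannotated genome.

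On simulated counts edgeR called 52 of 100 genes changed by 1 and 98 of 100 changed by 2 on the log2 scale, with 7 of the unchanged genes called, among 15715 genes. The simulation gave every gene the same dispersion and changed only genes with a mean above 1 CPM. These rates therefore do not hold for the members as such.

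Named members are the 12 with the highest mean CPM, up to 15 called with the smallest p, the 3 highest and 3 lowest fold changes and ratios, those next to the count limit, and their parents. Others were named after their values were seen, as the text says or as the members of the largest families, and some members are not reported here. The members and lists were chosen with earlier results of these data known.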

Additional observations from a re-analysis of the deposited data

How the results depend on the processing

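Against 57 higher members and 49 higher parents, the replicate number as a block gave 69 of 99 tested and 51 (16.2% of all genes higher, against 14.1%), DESeq2 gave 43 of 112 and 51 (13.5%), and other scalings stayed within 1.5 times of these counts. The deviations of same-numbered libraries from the means of their labels had a correlation of -0.10. This rests on 1 difference per label, so it cannot show whether the numbers pair the libraries. A block that crosses the numbers gave 69 and 52. Higher members numbered 27 with the exon length correction, where 2 were lower against 0, and 19 without the filter on low counts, where the higher parents numbered 22. Leaving out 1 library at a time, higher members ranged from 29 (of 109 and of 103 tested) to 75 (of 119 tested without WT 3, where 26.2% of all genes were higher and 25% lower), higher parents from 20 to 52 and the median log2 fold change of the tested members from 1.09 to 1.99. In these fits the lone library of a label is assumed to vary like the other label. That median, 1.48, was 0.69 with DESeq2 and ashr, which shrinks fold changes, and 0.80 with the exon length correction. Without WT 3 the value of Rps15a-ps4 changed sign, and over the fits without 1 library it ranged from -1.01 to 1.03. Of 59 named genes and pseudogenes, 22 lost significance without cKO 2, 22 without cKO 3, 26 without the filter on low counts and 4 with the length correction. The pooled ratio moved by less than 1 SD of the replicates in the alternatives run. The pair-by-pair median, -0.03, was 0.11 over members with at least 40 counts, and ranged from -0.22 to 0.087 leaving out 1 library at a time. The cause of these shifts was not tested. A member held a median of 83 counts over all libraries together, and at this depth small changes of single members are not detectable.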
